A study of Mus musculus with 6 samples.

Results

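The genes described here build the Z-disc, the titin filament and the parts that assemble a sarcomere: Actn2, Ldb3, Csrp3, Synpo2l, Ttn, Mybpc3, Smpx, Myo18b, Abra and Smyd1. They are 10 of the 19505 genes that the array's probes could be matched to, and they were picked because most of them differed strongly between the genotypes of this very study. Every genotype difference given for them is therefore a description without a test. Older gene symbols were counted, which gave 23 probes of 41174, and 22 of these passed the filter on dim probes, as did 27854 probes of 15027 genes in all.

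RNA came from whole mouse embryos at embryonic day 8.5, and each of the 6 samples was hybridised to a 1-colour Agilent array. In 3 samples, labelled Brg1d/d, Brg1 was conditionally knocked out. In the other 3, labelled Brg1fl/fl and named wild type by the submitters, the embryos carried the floxed alleles. The labels give the same treatment for both groups, tamoxifen injected into the peritoneum of the dam. The samples of a genotype are called biological replicates. The labels do not name the Cre driver, the deleted exons or the Cre status of the controls, nor say if embryos were pooled. The comparison asks how RNA levels at this stage differ when Brg1, a chromatin remodelling ATPase with the gene symbol Smarca4, is deleted.

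A sarcomere is the repeating contractile unit of striated muscle. Actin filaments are anchored at its borders, the Z-discs, where alpha-actinin crosslinks them, and titin runs from the Z-disc to the M-band in the middle, where the myosin filaments are held. The heart is the first organ of the mouse embryo to beat, and at the stage sampled here its muscle cells are the main cells that carry assembled sarcomeres.

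Throughout, the level of a probe is the log2 of its processed signal minus the 75th percentile of its array, so that 0 is the brightness of that percentile. A difference is the Brg1d/d mean minus the Brg1fl/fl mean of these levels, with its limma standard error (SE, n = 3 per genotype). Levels of different probes are set side by side only to pick the brightest probe or gene, to sum a marker list or to take the members' median. The 3 control arrays and Brg1d/d 2 were scanned on 1 day, and Brg1d/d 1 and Brg1d/d 3 each on a day of its own, so a same-day difference, Brg1d/d 2 minus the mean of the 3 controls, is given as well. The brightest spike-in control split the arrays in the same way, at 6905 and 12930 units on Brg1d/d 3 and 1 and 208600 to 241100 units on the other 4 arrays. The controls shared 1 slide and each Brg1d/d array had its own, so slide and genotype cannot be told apart. On Brg1d/d 1 and 3, 73.5% and 72.9% of the spots were well above background, and on the other 4 arrays 68.5% to 69.3%. The 75th percentile was 1574 and 1530 units on Brg1d/d 1 and 3 and 936.3 to 981.2 units on the other 4. At the brightest probe of Smarca4 the level was 1.54, 2.70 and 2.05 on Brg1d/d 1, 2 and 3 and 5.33, 4.49 and 4.53 on Brg1fl/fl 1, 2 and 3. It fell by 2.69 ± 0.36 (SE; adjusted p = 0.0119, limma with Benjamini-Hochberg adjustment), a call that was lost without Brg1d/d 1 or Brg1d/d 3. Whether its probes lie in the deleted stretch is not known.

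The array's 60-base probes for the members with single or central readouts are printed here because each value below is the brightness of one such sequence. Positions are those of the array's own annotation, build mm7, and the probes of Actn2 and Csrp3 match in pieces, so that their span of the genome exceeds their length. All lie on the minus strand.
Actn2 probe, chr13:12232837-12235333: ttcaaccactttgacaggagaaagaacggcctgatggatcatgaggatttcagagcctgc
Csrp3 probe, chr7:45051358-45053272: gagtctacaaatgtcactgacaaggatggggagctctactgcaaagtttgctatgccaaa
Ttn probe 19.6 kb from the first, chr2:76789186-76789245: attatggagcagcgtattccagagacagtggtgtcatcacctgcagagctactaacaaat
Ttn probe 251.4 kb from the first, chr2:76557401-76557460: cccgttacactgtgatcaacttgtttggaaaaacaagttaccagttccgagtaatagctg
Ldb3 probe on the second transcript, chr14:31962823-31962882: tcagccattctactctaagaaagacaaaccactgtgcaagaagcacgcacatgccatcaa
Abra probe, chr15:41864896-41864955: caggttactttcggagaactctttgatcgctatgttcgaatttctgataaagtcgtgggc
No member probe shares a stretch of 25 bases with another probe of the array, except the 2 probes of Smyd1, which overlap each other. No member spot was saturated and no member value was missing.

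Of the 10 genes, 9 were lower in Brg1d/d embryos by their brightest kept probe and 8 had no overlap between the genotypes, where 18.7% of all genes were lower without overlap and 41.8% did not overlap in either direction. In 8 genes the difference was below -3, where 0.486% of all genes lay that low. Since the genes were picked from this contrast, nothing is read from either count. Abra, Mybpc3, Smpx, Myo18b, Actn2, Synpo2l and Csrp3 ranked 3, 6, 9, 10, 14, 16 and 18 from the lowest among 15027 genes, and Ttn ranked 44. Ldb3 ranked 679, and Smyd1 ranked 13146, on the other side of 0. Fewer cells of a type and less RNA per cell cannot be told apart in RNA of whole embryos.

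**Figure D1:**
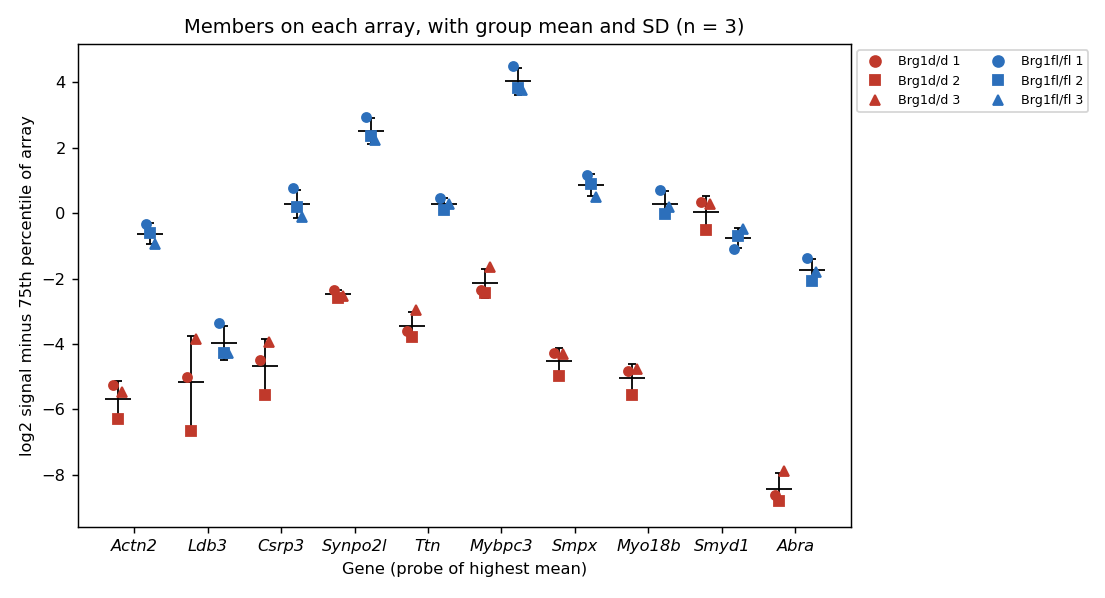
Level of each member on each array (log2 signal minus the 75th percentile of the array, vertical axis) for the probe of highest mean of each gene (horizontal axis), with the genotype mean and SD (n = 3). The red Brg1d/d points lie below all blue Brg1fl/fl points for 8 genes, and the genotypes overlap for Ldb3 and Smyd1, where the Smyd1 mean is higher in Brg1d/d.

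Actn2, the alpha-actinin of striated muscle that crosslinks actin filaments in the Z-disc, had levels of -5.24, -6.30 and -5.48 on Brg1d/d 1, 2 and 3 and of -0.34, -0.60 and -0.95 on Brg1fl/fl 1, 2 and 3. All 3 Brg1d/d arrays were far below the lowest control, and Brg1d/d 2 was the lowest. The difference was -5.04 ± 0.32, a 33.0-fold lower signal, and the same-day difference was -5.67. Its probe was well above background on every array, so the size is measured on both sides.

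Ldb3, also called ZASP or Cypher, binds alpha-actinin through its PDZ domain, and its 3 probes gave unequal differences. Its brightest probe had levels of -4.99, -6.65 and -3.86 on Brg1d/d 1, 2 and 3 and of -3.37, -4.26 and -4.26 on Brg1fl/fl 1, 2 and 3. Here the genotypes overlapped, since Brg1d/d 3 was above 2 of the controls, and the difference was -1.20 ± 0.69. Without Brg1d/d 2 it was -0.46, and on the same scan day it was -2.69. A second probe of the same transcript was not well above background on any Brg1d/d array. It gave -3.33 ± 0.25 by the measured means and an at least 3.66-fold lower signal as a bound. The probe on the second transcript that the array names, printed above, had levels of -6.76, -7.34 and -6.53 against -3.04, -3.55 and -3.71. It was not well above background on any Brg1d/d array and was so on all controls, with a difference of -3.44 ± 0.28 and an at least 9.29-fold lower signal.

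Csrp3, or muscle LIM protein, sits at the Z-disc with telethonin and is known as a candidate stretch sensor of heart muscle. It had levels of -4.49, -5.54 and -3.95 on Brg1d/d 1, 2 and 3 and of 0.75, 0.19 and -0.11 on Brg1fl/fl 1, 2 and 3. The genotypes lay wide apart, and the Brg1d/d arrays spread more among themselves than the controls did. The difference was -4.94 ± 0.44, a 30.7-fold lower signal, and -5.82 on the same scan day.

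Synpo2l, also named CHAP, is a relative of synaptopodin found at the Z-disc of heart and skeletal muscle. Its bright probe had levels of -2.34, -2.59 and -2.52 on Brg1d/d 1, 2 and 3 and of 2.94, 2.36 and 2.22 on Brg1fl/fl 1, 2 and 3. Both groups were tight, with a standard deviation of 0.13 in Brg1d/d and 0.38 in the controls, and far from each other. The difference was -4.99 ± 0.23, a 31.8-fold lower signal, and -5.10 on the same day. A dim second probe differed by only -1.37 ± 0.43 and was well above background on 1 of 3 Brg1d/d arrays, so the mean of the probes was -3.18 for this gene.

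Ttn encodes titin, the giant elastic filament that spans the sarcomere from Z-disc to M-band, and it had 9 probes spread over 261.1 kb of chromosome 2. Its brightest probe, near the 3′ end, had levels of -3.61, -3.79 and -2.96 on Brg1d/d 1, 2 and 3 and of 0.47, 0.09 and 0.28 on Brg1fl/fl 1, 2 and 3, a difference of -3.73 ± 0.25. All 9 probes were lower in Brg1d/d, and none of them overlapped between the genotypes. The differences ran from -5.33 ± 0.40 at the probe nearest the 5′ end to -1.95 ± 0.22 at a probe 51.0 kb downstream. That smallest difference belongs to a probe designed on a separate cDNA rather than on the main Ttn transcript of the array.

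From 5′ to 3′ there was no steady trend. The probes at 0.0 and 19.6 kb differed by -5.33 and -4.61, those at 101.7 and 113.1 kb by -3.59 and -3.16, and the last 2, at 260.6 and 261.1 kb, by -3.73 and -2.50. The probe at 251.4 kb was not well above background on any Brg1d/d array and had levels of -2.34, -3.11 and -3.30 on the controls, an at least 14.3-fold lower signal. The probe at 223.0 kb was dim in both groups, and its bound was 2.43-fold. Differences at the dimmer probes are limited by background on the Brg1d/d side, which was measured on all 3 arrays at 4 of the 9 probes. Brg1d/d 2 was the lowest of the Brg1d/d arrays at 5 Ttn probes and the highest at 4, among them the first pair, where its levels were -4.75 and -2.96. Brg1fl/fl 1 was the highest control at all 9.

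**Figure D2:**
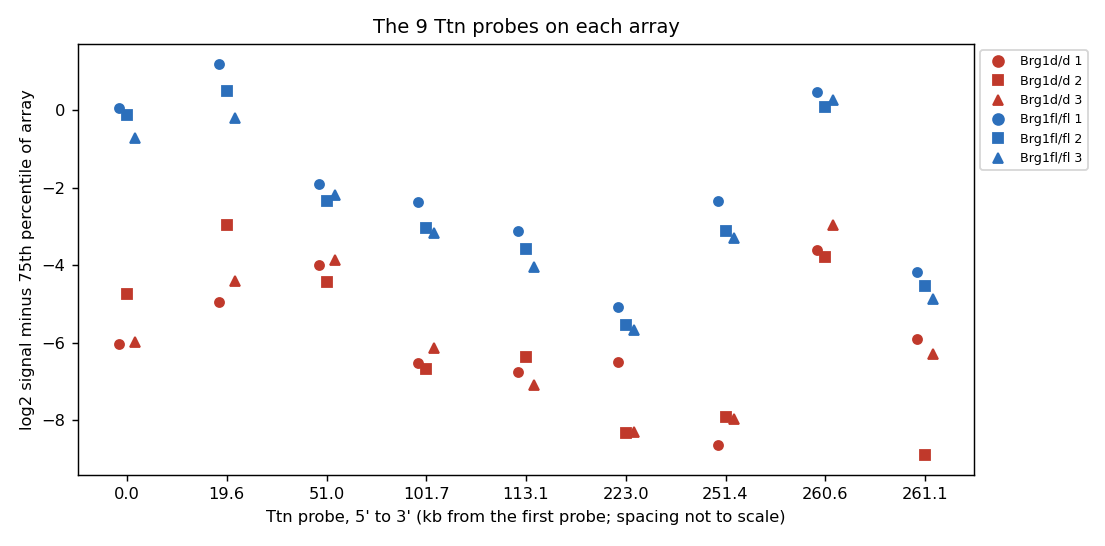
Level of the 9 Ttn probes on each array (log2 signal minus the 75th percentile of the array, vertical axis), ordered from 5′ to 3′ with the distance from the first probe in kb (horizontal axis, spacing not to scale). At each of the 9 probes the 3 red Brg1d/d points lie below the 3 blue Brg1fl/fl points, and the difference of the means is largest at 0.0 and 251.4 kb.

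Mybpc3, cardiac myosin-binding protein C, decorates the myosin filament and regulates its cross-bridges. It had levels of -2.35, -2.45 and -1.64 on Brg1d/d 1, 2 and 3 and of 4.50, 3.81 and 3.76 on Brg1fl/fl 1, 2 and 3. The lowest control was far above the highest Brg1d/d array. The difference was -6.17 ± 0.30, a 71.9-fold lower signal that was well above background on every array, and -6.47 on the same day.

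Smpx, a small muscle protein of the costamere that is encoded on the X chromosome, had levels of -4.28, -4.97 and -4.29 on Brg1d/d 1, 2 and 3 and of 1.17, 0.89 and 0.50 on Brg1fl/fl 1, 2 and 3. The groups did not overlap. The difference was -5.37 ± 0.27, a 41.3-fold lower signal, and -5.83 on the same day.

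Myo18b, an unconventional myosin needed to form sarcomeres in the embryonic heart, had levels of -4.82, -5.56 and -4.75 on Brg1d/d 1, 2 and 3 and of 0.71, -0.03 and 0.19 on Brg1fl/fl 1, 2 and 3. The difference was -5.33 ± 0.30, a 40.3-fold lower signal without overlap, and -5.84 on the same day. Its second probe, designed on a separate cDNA, did not pass the filter. It was not well above background on any control and was so on 2 of 3 Brg1d/d arrays, at -5.04, -6.83 and -4.70 against -7.34, -8.48 and -6.77. Those values overlap. The means differed by 2.0, and by 0.69 on the same scan day. With only 2 of 3 Brg1d/d arrays well above background, no fold is given as a bound.

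Abra, also called STARS, binds actin at the Z-disc and promotes transcription by serum response factor. Its levels were -8.60, -8.81 and -7.89 on Brg1d/d 1, 2 and 3 and -1.38, -2.06 and -1.81 on Brg1fl/fl 1, 2 and 3. No Brg1d/d array was well above background at its probe, and every control was. The measured means differed by -6.68 ± 0.30, and the signal was at least 32.1-fold lower as a bound. Abra is also the member whose value moved most with normexp, to -2.62. That setting adds an offset of 50 units, and the processed signal of Abra was 2.089 to 6.432 units on the Brg1d/d arrays. The offset thus limits the size of the difference under normexp.

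Smyd1, a histone methyltransferase of heart and skeletal muscle that also acts as a chaperone partner for myosin, was the exception. It had levels of 0.34, -0.52 and 0.28 on Brg1d/d 1, 2 and 3 and of -1.10, -0.70 and -0.49 on Brg1fl/fl 1, 2 and 3. Brg1d/d 1 and 3 were above all controls, and Brg1d/d 2 lay among them. The difference was 0.80 ± 0.29 over all arrays and 0.25 on the same scan day. Its second probe, which overlaps the first, gave 0.68 ± 0.36 and -0.15. Both probes were well above background on all 6 arrays, so the level of Smyd1 was measured in both genotypes.

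**Figure D3:**
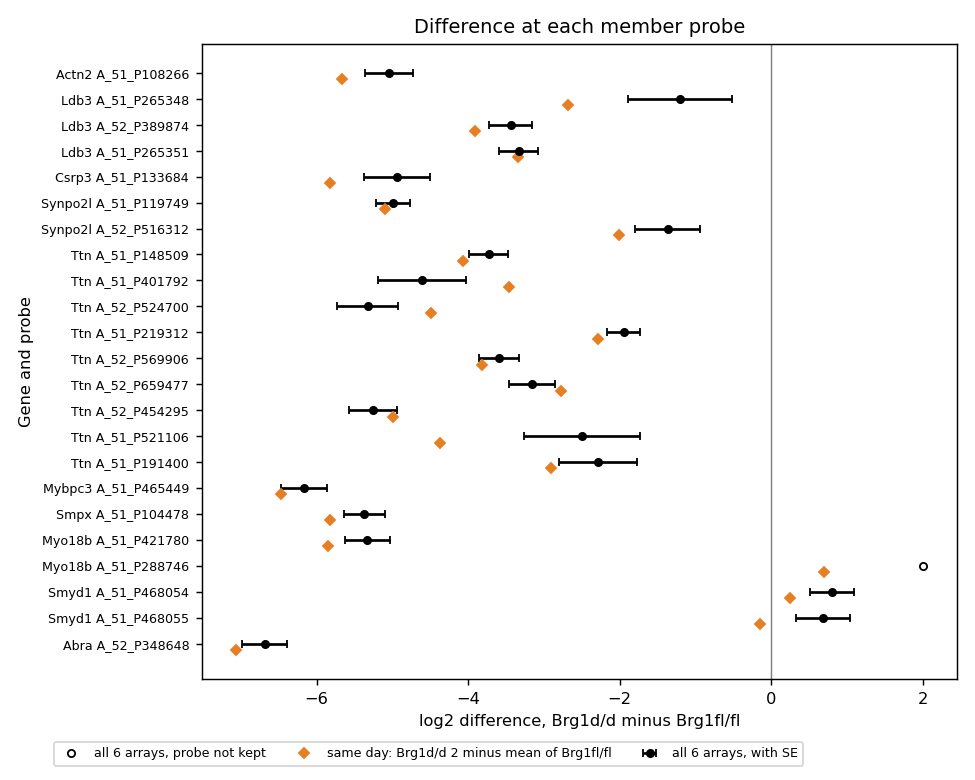
Difference of each of the 23 member probes (log2, Brg1d/d minus Brg1fl/fl, horizontal axis), with SE for the 22 kept probes (filled points) and the same-day difference as a diamond. 20 kept probes lie below 0, and the 2 Smyd1 probes and the Myo18b probe that was not kept (open point) lie above it.

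By the brightest probe, Brg1d/d 2 was the lowest Brg1d/d array for 10 of 10 members, against 49.4% of the other genes. It was so for 65.2% of the 4676 other genes with a Brg1d/d mean below -2. Of the 65 other genes with a difference below -3 it was lowest in 72.3%. Brg1fl/fl 1 was the highest control for 9 of 10, Smyd1 being the exception, against 49.1% of the other genes and 63.1% of those 65. The other places were not shared: the highest Brg1d/d array was Brg1d/d 1 for 4 members and Brg1d/d 3 for 6, and the lowest control was Brg1fl/fl 1, 2 and 3 for 1, 4 and 5 members. The median level of the members was -4.38, -5.26 and -3.91 on Brg1d/d 1, 2 and 3 and 0.59, 0.03 and 0.04 on Brg1fl/fl 1, 2 and 3. Since Brg1d/d 2 is the array that shared the controls' scan day, the same-day difference was further below 0, or in Smyd1 nearer to 0, than the all-array difference for 10 of 10. The median difference of the members was -5.02 over all arrays and -5.75 on the same day. With normexp background correction the differences of Actn2, Csrp3, Ttn, Smpx and Myo18b were -3.32, -3.72, -3.13, -4.17 and -3.90, nearer to 0 than with the processed signal. The part of the scan day, the spike-in split and the slide in these values was not tested beyond that.

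Genes outside the members were tested with limma at an adjusted p under 0.05, which 10.4% of all genes passed, 5.12% lower and 5.26% higher. In numbers, 770 fell and 790 rose, and 917 fell and 612 rose when each array's median was subtracted, which shifted the median of all genes by -0.106. The count of 1560 genes became 316 without Brg1d/d 1, 340 without Brg1d/d 3, 294 without Brg1fl/fl 2, 922 without Brg1fl/fl 3 and 2882 without Brg1d/d 2. When limma was given scan day as a fixed block, 0 genes passed (1778 had an unadjusted p under 0.05, where the fit without a block had 4873), and each of the 28 calls among the genes named from the lists, Smarca4 included, was lost in that fit. In the scan day fit the genotype term rests on Brg1d/d 2 alone against the 3 controls, since Brg1d/d 1 and 3 each had their own day. These counts bear on the lists that follow, and not on the members, which were not tested.

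Relatives of the members by sequence, most of them not restricted to striated muscle, were read from the same arrays. The list is not complete. Actn3, Pdlim3, Pdlim5 and Pdlim7 were counted among the Z-disc partners, and Mybpc2, Mybph and Mybphl with the M-band genes. Over the 14 relatives the median difference was 0.04, beside 0.08 over the 15017 genes outside the members, and 42.9% of them were below 0, beside 44.5%. Among the relatives 2 fell, 1 rose and 11 did not pass. Synpo2, or myopodin, fell by 2.51 ± 0.24 (SE; limma adjusted p = 0.00472), from 0.76, 0.12 and 0.10 on the controls to -2.37, -1.90 and -2.28 on the Brg1d/d arrays. Pdlim4, a PDZ and LIM protein like Ldb3, fell by 1.31 ± 0.25 (limma adjusted p = 0.0282). Smyd4 rose by 0.92 ± 0.17 (limma adjusted p = 0.0289), and lost its call when each array's median was subtracted. The call of Synpo2 held without each array in turn, and those of Pdlim4 and Smyd4 were lost without Brg1d/d 1, Brg1d/d 3 or Brg1fl/fl 2, and that of Smyd4 also without Brg1fl/fl 3.

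None of the other 11 relatives passed over all arrays, and the sign of Actn1, Pdlim1, Smyd2, Smyd3 and Synpo turned under another setting. The non-muscle alpha-actinins Actn1 and Actn4 differed by 0.03 ± 0.16 and 0.17 ± 0.18, where Actn2 differed by -5.04. Csrp1 and Csrp2, LIM proteins like Csrp3, differed by -0.29 ± 0.20 and 0.28 ± 0.15. Myo18a differed by 0.65 ± 0.36, and by 0.26 without Brg1fl/fl 1. Synpo differed by 0.88 ± 0.37 at its brightest probe, by -0.23 as the mean of its probes and by 0.14 with scan day as a block, and it passed without Brg1d/d 2, at 1.24 (limma adjusted p = 0.0407). Pdlim1 and Pdlim2 differed by 0.05 ± 0.32 and -0.63 ± 0.18, and Pdlim2 passed without Brg1fl/fl 1, at -0.77 (limma adjusted p = 0.0322). The methyltransferases Smyd2, Smyd3 and Smyd5 differed by -0.12 ± 0.15, -0.14 ± 0.18 and 0.38 ± 0.16. A value that did not pass does not show that these genes were level, and the gap between a member and its relatives was not tested, because the members were chosen for their differences.

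**Figure D4:**
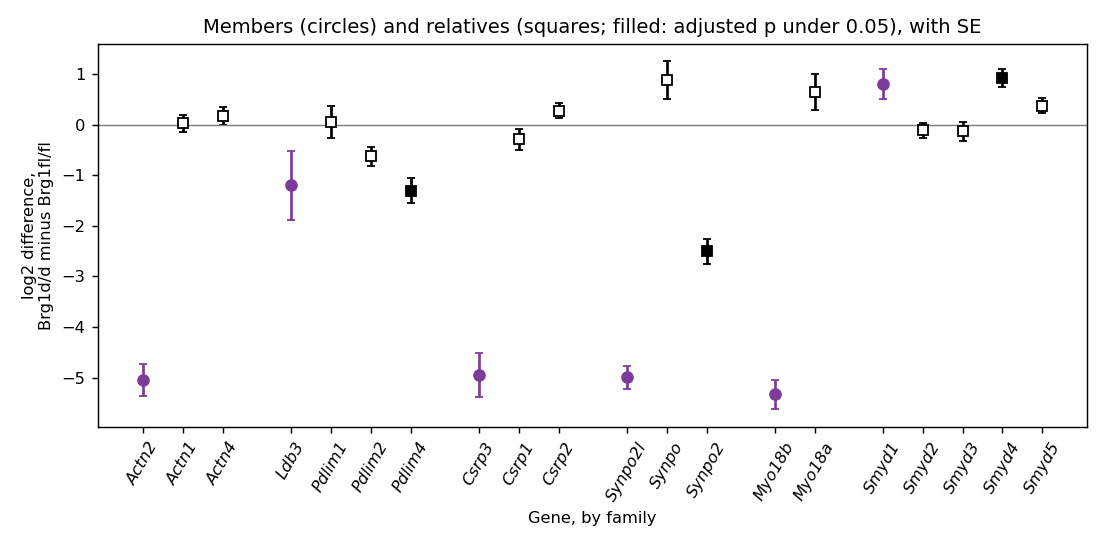
Difference (log2, Brg1d/d minus Brg1fl/fl, vertical axis) with SE for the 6 members that have relatives on the list (purple circles) and their 14 relatives (squares, filled where the limma adjusted p is under 0.05), grouped by family along the horizontal axis. Actn2, Csrp3, Synpo2l and Myo18b lie near -5. The relatives of Actn2 and Csrp3 lie near 0, while Synpo2 lies at -2.51, Synpo at 0.88 and Myo18a at 0.65.

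Other proteins of the Z-disc and partners of titin were listed as a further group. Of 29 listed genes 24 could be measured, and of these 9 fell, 0 rose and 15 did not pass, where 5.12% of all genes fell. Their median difference was -0.94, on the same day as well. Xirp1, a repeat protein of the intercalated disc that binds actin, fell by 3.0 ± 0.54 (limma adjusted p = 0.0257), and Tcap, the telethonin that caps the titin ends at the Z-disc, fell by 2.43 ± 0.25 (0.00547). Des, the desmin filament that ties Z-discs together, fell by 2.36 ± 0.24 (0.00518), and Itgb1bp2, or melusin, by 1.66 ± 0.38 (0.0458). The probe of Xirp1 was well above background on 2 of 3 Brg1d/d arrays, so background limits its size. At an unadjusted p under 0.05, 1 gene of the list was higher. The count was 3 without Brg1d/d 1, 5 without Brg1d/d 3 and 4 without Brg1fl/fl 2. Tcap and Des kept their calls without each array in turn, Xirp1 lost its call without Brg1d/d 1, Brg1fl/fl 2 or Brg1fl/fl 3, and Itgb1bp2 without any one of the Brg1d/d arrays or Brg1fl/fl 2. The call of Itgb1bp2 was also lost with slide as a random block (limma adjusted p = 0.0541), and without the filter on dim probes the limma adjusted p was 0.0889 for Itgb1bp2 and 0.0557 for Xirp1.

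Of the M-band, thick filament and turnover genes, 15 of 18 were measured, 7 fell, 0 rose and 8 did not pass. The median was -1.10, and -1.29 on the same day. Myom1, the myomesin that crosslinks myosin filaments at the M-band, fell by 3.81 ± 0.26 (limma adjusted p = 0.00189), and Lrrc39, or myomasp, which binds myosin there, fell by 3.0 ± 0.28 (0.00412). Mybphl, a short relative of Mybpc3, fell by 2.56 ± 0.46 (limma adjusted p = 0.0259). Its probe was well above background on 1 of 3 Brg1d/d arrays, and that of Lrrc39 on 2 of 3, so background limits both sizes. At an unadjusted p under 0.05, 2 genes were higher. The count was 4 without Brg1d/d 1 and 4 without Brg1fl/fl 2, and those are the arrays without which Mybphl lost its call.

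Of the assembly factors and genes of the actin and serum response factor axis, 23 of 26 were measured, 9 fell, 0 rose, also at an unadjusted p under 0.05, and 14 did not pass. The median was only -0.36. Unc45b, the myosin chaperone of striated muscle with which Smyd1 works, had levels of -1.79, -1.74 and -1.77 on Brg1d/d 1, 2 and 3 and of 2.75, 2.01 and 2.09 on the controls. It fell by 4.05 ± 0.23 (limma adjusted p = 0.00113) while Smyd1 differed by 0.80. The small heat shock protein Hspb7 fell by 2.72 ± 0.35 (0.0107), the actin pointed-end cap Tmod1 by 2.26 ± 0.37 (0.0195) and the actin nucleator Lmod3 by 1.84 ± 0.31 (0.0214). Named after their values were seen, Srf itself differed by 0.31 ± 0.18 without passing, and its cardiac coactivator Myocd fell by 1.72 ± 0.26 (0.0151). The count was 2 without Brg1d/d 1, 3 without Brg1d/d 3 and 1 without Brg1fl/fl 2. Hspb7 lost its call without Brg1fl/fl 2, Lmod3 without Brg1d/d 1 or Brg1fl/fl 2, and Tmod1 without either of those or Brg1d/d 3.

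The contractile filaments that the members hold in place were read as a neighbour group. All 14 of their genes were measured, 11 fell, 0 rose, also at an unadjusted p under 0.05, and the median was -3.59. The myosin heavy chains Myh7 and Myh6 fell, with differences of -8.33 ± 0.21 and -6.89 ± 0.19, and so did the light chains Myl2 and Myl4, with differences of -6.58 ± 0.31 and -4.51 ± 0.26. Their limma adjusted p lay between 8.87e-05 and 0.00120.

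**Figure D5:**
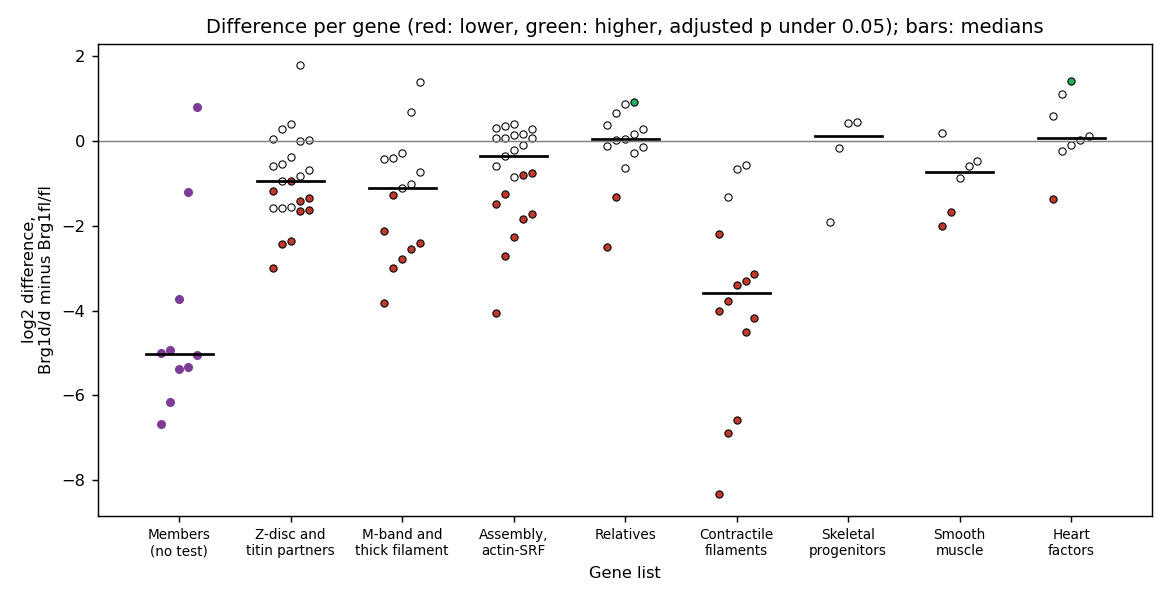
Difference of each measured gene (log2, Brg1d/d minus Brg1fl/fl, vertical axis) by gene list (horizontal axis), with bars for the medians; red points fell and the green points rose by limma, open points did not pass, and the members (purple) were not tested. The members' median is -5.02, the contractile filaments' -3.59, and the relatives' 0.04.

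Markers of other cells that could carry these transcripts were read as well. Of 8 genes of skeletal muscle progenitors 4 passed the filter and 0 changed (1 at an unadjusted p under 0.05, lower), and Myf5 and Myf6 were not well above background on any array. Pax3 had the smallest p of the list, with a difference of -1.92 ± 0.62 (limma adjusted p = 0.0985). The summed level of the list, in units of the 75th percentile signal, was 0.264 to 0.304 on the Brg1d/d arrays and 0.268 to 0.656 on the controls. Of 6 smooth muscle genes 2 fell, Cnn1 by 1.99 ± 0.23 (limma adjusted p = 0.00734) and Mylk by 1.67 ± 0.31 (0.0277). The summed level was 21.9 to 25.6 against 34.8 to 41.0. That sum leans on Acta2 and Tagln, the brightest of the list on every array, which did not pass (limma adjusted p = 0.127 and 0.0782). The call of Mylk was lost without Brg1d/d 1, Brg1d/d 3 or Brg1fl/fl 2.

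Of 8 transcription factors of the early heart, all measured, Tbx5 fell by 1.37 ± 0.29 (limma adjusted p = 0.0395) and Hand1 rose by 1.42 ± 0.32 (0.0449), 6 did not pass, and the median was 0.07. Their summed level was 16.5 to 17.8 on the Brg1d/d arrays and 11.9 to 13.8 on the controls. Hand1 was the brightest of the list on each Brg1d/d array. Its levels were 3.08, 2.51 and 2.94 on Brg1d/d 1, 2 and 3 and 0.93, 1.29 and 2.05 on Brg1fl/fl 1, 2 and 3. The sum therefore leans on Hand1 and does not speak for the list as a group. By unadjusted p under 0.05, 1 gene was lower and 3 were higher. Named after its value was seen, Nkx2-5, a factor that marks heart progenitors and heart muscle, differed by 0.02 ± 0.17 without passing. The calls of Tbx5 and Hand1 were lost without Brg1d/d 1, Brg1d/d 3 or Brg1fl/fl 2, that of Tbx5 also without Brg1fl/fl 3, and that of Hand1 also without Brg1fl/fl 1 or when each array's median was subtracted. The part of any of these markers in the members' differences was not tested.

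The genes most like the members across the arrays were found by the Pearson correlation of their 6 levels with the median level of the members, among 14487 genes well above background on all controls. The 10 highest were Purg, Sphkap, Asb2, Trim63, Dusp27, Lmod1, Rrad, Smim10l1, Pgam2 and Klhl30, with r from 0.999 to 0.997. These r have no p, the 6 points fall into the clusters of the genotypes, and 379 genes had r above 0.95. The correlation measures shape and not size: Asb2 differed by -5.29 ± 0.31 and Klhl30 by -4.22 ± 0.40, whereas Purg differed by only -0.60 ± 0.14 and Smim10l1 by -0.54 ± 0.14. These differences are given as a description with no test, since genes picked for following the members on these arrays had to differ between the genotypes.

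The stretch before the start of each gene was searched because most members were low together. The RefSeq promoter table (GRCm38.p6; 250 bases before to 50 after the start) held 11 promoters of 8 members and 32851 promoters in all. Both strands were searched for the CArG box of serum response factor, for the MEF2 site and for TATAAA. The short motifs named last were searched in the same way. A MEF2 site was found in 4 of the 11 member promoters, those of Mybpc3 and Ttn and both of Synpo2l, and in 3.19% of all promoters. A CArG box was found in 2 of the 11, which are the overlapping promoters of Ldb3 and hold the same box, and in 1.63% of all promoters. TATAAA was found in 1 of the 11, that of Smyd1, and in 13.6% of all promoters.

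The promoters with one of these 3 motifs are printed from 250 bases before the start to the base before it, on the strand of the gene, with the motif in capitals. For Synpo2l and Ldb3, which have 2 starts each, 1 is shown.
Mybpc3, chr2:91117894-91118143, plus strand, MEF2 site: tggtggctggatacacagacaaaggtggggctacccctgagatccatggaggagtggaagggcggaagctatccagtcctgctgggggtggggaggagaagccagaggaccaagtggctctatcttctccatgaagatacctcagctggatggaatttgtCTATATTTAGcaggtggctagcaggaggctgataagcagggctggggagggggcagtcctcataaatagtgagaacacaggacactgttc
Ttn, chr2:76982548-76982797, minus strand, MEF2 site: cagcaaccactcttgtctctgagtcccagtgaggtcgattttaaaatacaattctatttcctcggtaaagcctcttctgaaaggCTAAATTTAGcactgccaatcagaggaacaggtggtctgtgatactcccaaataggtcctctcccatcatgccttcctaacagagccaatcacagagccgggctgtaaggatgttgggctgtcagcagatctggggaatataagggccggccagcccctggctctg
Synpo2l, chr14:20668355-20668604, minus strand, MEF2 site: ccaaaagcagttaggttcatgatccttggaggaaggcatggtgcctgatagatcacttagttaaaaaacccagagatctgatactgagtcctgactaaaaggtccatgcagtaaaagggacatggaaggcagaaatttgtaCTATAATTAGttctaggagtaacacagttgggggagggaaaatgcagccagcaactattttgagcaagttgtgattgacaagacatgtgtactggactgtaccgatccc
Ldb3, chr14:34588682-34588931, minus strand, CArG box: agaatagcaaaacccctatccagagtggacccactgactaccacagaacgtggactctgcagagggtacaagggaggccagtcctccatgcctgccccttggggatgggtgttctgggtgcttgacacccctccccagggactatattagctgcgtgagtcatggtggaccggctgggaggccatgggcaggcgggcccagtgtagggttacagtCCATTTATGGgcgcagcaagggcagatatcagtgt
Smyd1, chr6:71262282-71262531, minus strand, TATAAA read as its reverse complement: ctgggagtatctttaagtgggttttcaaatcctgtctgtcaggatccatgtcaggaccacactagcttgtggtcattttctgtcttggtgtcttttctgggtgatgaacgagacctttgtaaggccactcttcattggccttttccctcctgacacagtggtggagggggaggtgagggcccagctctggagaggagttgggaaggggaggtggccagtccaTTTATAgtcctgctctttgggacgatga
Counted from the start, the MEF2 site lies at -90 to -81 in Mybpc3, at -166 to -157 in Ttn and at -109 to -100 in the printed promoter of Synpo2l, and the CArG box of Ldb3 lies at -35 to -26. In Smyd1 the match lies at -28 to -23. CATTCC was found in 1 member promoter, that of Ttn (14.7% of all promoters), and AGGTGT in 1 of Csrp3 (13.7%), where it shares bases with a CANNTG match. AGATAA or TGATAA was found in 2 of 11, those of Mybpc3 and Smpx (18.6%), and CANNTG in 7 of 11 (72.3%). A match describes letters in this window and is not a bound site, and the absence of one says only that the letters are not in it.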

How the data were processed

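RNA of 6 whole embryos or pools (3 Brg1d/d, 3 Brg1fl/fl) was labelled with Cy3 from 250 ng, per the labels' protocols. Per the submitters' processing notes, the authors used Agilent Feature Extraction 9.5. The deposited scanner files hold the processed intensity, with background subtracted, the mean and background intensity of each spot, and flags of 0 or 1 (unit: other). Per the file headers the probe positions are on build mm7. The deposited series table holds the same intensity and equalled the processed signal at 100% of spots (relative tolerance 1e-04).

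Without outlier spots, the log2 of the deposited processed signal was averaged over the spots of a probe and set relative to the 75th percentile of its array. Kept were probes that all 3 arrays of Brg1d/d or of Brg1fl/fl measured well above background. A gene was read through its kept probe of highest mean. Where a genotype had no such array and all 3 of the other were well above background, the fold is a lower bound. For it each dim array was read at the dimmest signal well above background on that array, or at the probe's own signal where that was higher. Probes were named through the RefSeq table of GRCm38.p6: 22951 by accession, 6659 by symbol and 3109 by synonym, while 8455 kept the array's name and were not counted as genes. Genotypes were compared with limma 3.58.1 (two-sided, R 4.3.3; no covariate, Benjamini-Hochberg adjustment over 27854 probes, threshold 0.05), which was tested on simulated data. The p-values measure the spread between these samples. With 3 arrays a genotype, the number of arrays limits the precision. Python 3.11.15, pandas 2.3.3 and matplotlib 3.10.9 read sequences and drew plots.

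The members and the lists were chosen with earlier results of these data known. Named were all members, Smarca4, all relatives, up to 4 genes of each list with the largest difference among those that passed (or else the gene of smallest p) and the 10 genes most like the members. 1 gene that this rule names is not reported here. The alternatives were quantile and median scaling, normexp (offset 50), dropping the filter, requiring all 6 arrays above background, the series table's values, scan day, the spike-in split and the replicate number as fixed blocks, slide as a random block, an intensity trend with robust eBayes, the mean of a gene's probes, and each array left out in turn.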

Additional observations from a re-analysis of the deposited data

How the results depend on the processing

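Under every alternative in which they had a value, 9 members kept their sign below 0 and Smyd1 stayed above it, at 0.25 to 1.08. Abra and Ldb3 had no value when all arrays had to be well above background. The series table, both changes of filter, the replicate and slide blocks and the intensity trend left each member's difference unchanged, so they could not turn a sign. Since the members were picked from this contrast, the kept signs are a description and not support. The members' median difference of -5.02 was -3.52 with normexp and -5.75 with scan day or the spike-in split as a block, and -5.22 to -4.84 with an array left out. Ttn was read through another probe without Brg1d/d 1 or Brg1d/d 3. Changed genes numbered 1560, and 686 without a filter on dim probes, 0 with scan day, 116 with the spike-in split, 548 with the replicate block and 294 to 2882 with an array left out. The deviations of same-numbered samples correlated at -0.127, 0.0806 and 0.0907, within the -0.19 to 0.109 of samples with unlike numbers. This shows no sign of pairing by number but cannot exclude it.

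Genes that fell among the Z-disc partners numbered 9, and 4 without a filter, 0 with scan day, 1 with the spike-in split, 5 with the replicate block and 3 to 11 with an array left out. The M-band list went from 7 to 0, 3 and 4 in the scan day, spike-in and replicate block fits and to 4 to 8 with an array left out. The assembly list went from 9 to 0, 2 and 4 and to 1 to 9. The relatives went from 2 to 1 without a filter, 0 with scan day, 0 with the spike-in split, 1 with the replicate block, 1 with the mean of a gene's probes and 1 to 3 with an array left out. The contractile filaments went from 11 to 0 with scan day and to 10 to 12 with an array left out. With scan day as a block limma had 11, 10, 8, 2 and 12 genes of these 5 lists lower at an unadjusted p under 0.05, and the spike-in split had 2 relatives. Both fits leave fewer degrees of freedom. In both, the block takes up Brg1d/d 1 and 3, so the genotype term is Brg1d/d 2 alone against the 3 controls. They are therefore not separate corrections, and their differences equal the same-day difference. Of 28 calls among the genes named from the lists, Smarca4 included, the scan day took 28, the spike-in split 19, the replicate block 14, no filter 11, slide and median scaling 3 each and the mean of probes 2, and no call reversed. Calls were lost without the filter for Xirp1, Itgb1bp2, Mybphl, Pdlim4, Smyd4, Mylk, Hand1, Tbx5, Meox1, Pax6 and Sox17, with slide for Itgb1bp2, Hand1 and Meox1, with median scaling for Smyd4, Hand1 and Sox17, and with the mean of probes for Pdlim4 and Tbx5. Among relatives that did not pass, the sign turned for Actn1 at -0.079 and Pdlim1 at -0.054 with median scaling, and with scan day or the spike-in split for Actn1 at -0.15, Pdlim1 at -0.22, Smyd2 at 0.046 and Smyd3 at 0.095. With the mean of probes it turned for Synpo at -0.23 and Smyd3 at 0.28. With an array left out Actn1 ran from -0.030 to 0.11 and Pdlim1 from -0.28 to 0.23. Background limits the dim probes of Ttn, Ldb3 and Abra, and among the listed genes also those of Xirp1, Lrrc39 and Mybphl. Across the alternatives the difference ran from -4.11 to -1.55 for Xirp1, from -3.32 to -1.42 for Lrrc39 and from -3.02 to -0.89 for Mybphl. For Hspb7 it ran from -3.47 to -1.54.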

Other observations

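Markers of other tissues show what the whole embryos held beside the heart. Of 12 such genes, all measured, 3 fell and 1 rose by limma at an adjusted p under 0.05. Meox1, a somite gene, fell by 1.88 ± 0.44 (limma adjusted p = 0.0480). Pax6, a gene of the eye and neural tube, fell by 1.80 ± 0.36 (limma adjusted p = 0.0335), and Cdh5, the cadherin of endothelium, fell by 1.31 ± 0.20 (limma adjusted p = 0.0155). Sox17, a gene of endoderm and endothelium, rose by 1.02 ± 0.18 (0.0232). Each of these calls was lost without Brg1d/d 1, Brg1d/d 3 or Brg1fl/fl 2, those of Meox1 and Sox17 without Brg1fl/fl 3 too, that of Meox1 without Brg1d/d 2, and that of Sox17 when each array's median was subtracted.

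Brg1fl/fl 1, the control with the highest level for 9 of the 10 sarcomere genes, differed from both other controls at blood and yolk sac markers, named after their values were seen. Its level was -3.40 at Gata1, -0.20 at Ttr and 5.02 at Afp, where Brg1fl/fl 2 and 3 had -0.26 and 0.38, 2.22 and 2.56, and 7.08 and 7.01. The summed level of the 12 tissue markers was 121 on that array and 346 on both other controls. It was 149, 148 and 153 on Brg1d/d 1, 2 and 3, so by this sum Brg1fl/fl 1 lay nearer to the Brg1d/d arrays. The sum leans on Hbb-bh1 and Afp, the brightest of the list on every array, and does not speak for the list as a group. At Hbb-bh1, Brg1fl/fl 1 lay nearer to the Brg1d/d arrays than to the other controls. At Gata1, Ttr and Afp it lay below every Brg1d/d array, and further from the Brg1d/d mean than both other controls did. The part of the make-up of Brg1fl/fl 1 in the members' levels was not tested.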
